A study of Homo sapiens with 6 samples.

Results

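Heat shock chaperones that work outside the endoplasmic reticulum were compared between bortezomib-resistant and wild type cells of HT-29, a line derived from a human colon adenocarcinoma. A list of 51 genes was taken by name: HSP70, HSP110, HSP90 and small heat shock proteins, mitochondrial chaperonins, J-proteins (DNAJ), BAG proteins, co-chaperones, heat shock factors with the regulator HSBP1, and SERPINH1. Among them, 49 had a probe set of their own on the array and 48 passed the filter on low values, out of 19775 genes on the array and 10370 tested. HSF2 and AHSA1 were not analysed here, because the annotation table used named no probe set for them. DNAJB5 stood at 2.23, the lowest value of the data, on every array and was not tested. Members of the list that act at the endoplasmic reticulum, such as SERPINH1, HSPA13, DNAJB12 and DNAJC1, were kept, as was HSPB11, whose present symbol is IFT25.

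BR100 and BR200 descend from HT-29 cells kept in bortezomib, an inhibitor of the proteasome, at doses raised from 20 to 300 nM in the course of 7 months. Clones were picked by limiting dilution, done 2 times, with 100 or 300 nM drug for 4 further months. The third variant was wild type HT-29, although the same treatment text stands on all samples. The labels give neither the dose used to clone BR200 nor whether bortezomib was present at harvest, and a clone stands for 1 derived population. Each variant had 2 arrays, 1 from 100 ng of RNA with the 3' IVT Express kit and 1 from 3 ug with the One-Cycle kit. The labels name no separate cultures behind the 2 arrays of a variant, and the p-values therefore measure only how these arrays vary. In these bulk RNA samples, fewer cells of a type and less RNA per cell cannot be told apart.

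Chaperones bind unfolded proteins and keep them from aggregating. HSP70 cycles on and off its clients with the help of J-proteins, which deliver clients, and of exchange factors such as HSP110 and BAG proteins, which release them, and HSP90 with its co-chaperones matures kinases and steroid receptors. When unfolded proteins accumulate, as they do when the proteasome is blocked, the transcription factor HSF1 binds heat shock elements in the promoters of many of these genes.

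The promoter sequences are shown because the elements that HSF1 is known to bind could be located in them. The search used RefSeq windows of GRCh38.p14, from 250 bases before to 50 bases after each transcript start, and covered both strands. An element of 3 units was written as TTCNNGAANNTTC or its reverse complement GAANNTTCNNGAA, and one of 2 units as TTCNNGAA or GAANNTTC, each of which is its own reverse complement. The longer form contains the shorter one. Of the 51 genes, 46 had a window. The 3-unit element was found in 7 of those 46 genes (15.2%), against 0.608% of all 27305 genes with a window. Those 7 were HSP90AA1, HSP90AB1, CHORDC1, SERPINH1, DNAJA1, DNAJB6 and HSPD1. The 2-unit form was in 15 of the 46, against 16.2% of all genes, and HSPB1 was among the 15. Capitals mark the 3-unit match (for HSPB1, the 2-unit match) in the stretches printed here, and a further 2-unit match in each of the HSP90AA1 and CHORDC1 stretches stands in lower case. The stretches run 5′ to 3′ on the strand of the gene.
HSP90AA1, chr14:102087090-102087162, minus strand: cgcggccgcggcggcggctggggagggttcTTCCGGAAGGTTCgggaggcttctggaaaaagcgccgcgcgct
HSP90AB1, chr6:44247748-44247873, plus strand: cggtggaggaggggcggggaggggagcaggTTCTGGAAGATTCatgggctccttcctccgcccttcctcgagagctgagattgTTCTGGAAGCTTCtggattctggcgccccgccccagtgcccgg
CHORDC1, chr11:90223057-90223139, minus strand: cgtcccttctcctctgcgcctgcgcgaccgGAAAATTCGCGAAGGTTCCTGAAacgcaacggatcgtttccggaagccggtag
SERPINH1, chr11:75562147-75562219, plus strand: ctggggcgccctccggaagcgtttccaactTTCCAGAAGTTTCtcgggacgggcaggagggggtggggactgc
HSPB1, chr7:76302461-76302528, plus strand: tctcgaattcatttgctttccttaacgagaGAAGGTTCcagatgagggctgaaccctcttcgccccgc
A match is a description of letters and not a bound site.

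**Figure D1:**
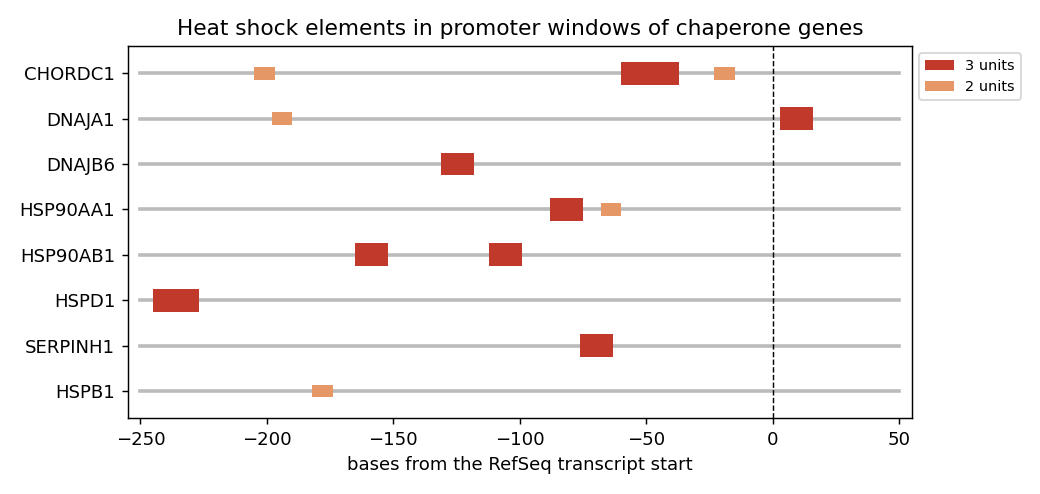
Heat shock elements in the RefSeq promoter window of 8 chaperone genes, plotted by distance in bases from the transcript start (dashed line at 0). Dark bars are elements of 3 units and light bars elements of 2 units. For HSPD1 the window of the start 539 bases from HSPE1 is drawn. HSPB1 has a 2-unit element alone, and in DNAJA1 the 3-unit element lies just after the start.

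Taken by class, the resistant variants had higher HSP90, HSP110 and small heat shock protein genes and a mixed picture of J-proteins. The HSP90, HSP110 and small heat shock protein classes had only 3, 3 and 2 genes tested. The last class was HSPB1 and HSPB11 (IFT25), a subunit of intraflagellar transport. A gene was called changed at a limma adjusted p under 0.05 (Benjamini-Hochberg over 10370 genes). In BR100, 24 of the 48 chaperone genes were higher than in wild type and 12 lower, that is 50% and 25%. Among all genes tested, 36.7% were called higher and 31.8% lower. In BR200, 22 were higher and 15 lower, or 45.8% and 31.2%, beside 35.4% and 31.2% of all genes. The 2 comparisons share the wild type arrays. At 2-fold or more, 8 chaperone genes were higher and 5 lower in BR100, where all genes gave 13.7% and 12%. In BR200 that count was 5 higher and 6 lower, beside 13% and 10.7% of all genes. The median log2 change of the chaperone genes was 0.25 in BR100 and −0.05 in BR200, and that of all genes was 0.04 in each. Without the block for labelling kit, 13 chaperone genes were called higher and 7 lower in BR200. The calls lost without it in both variants were those of HSPA14, HSPA4L, HSP90AB1, TRAP1, DNAJA3, DNAJB6, HSF1, CDC37 and SERPINH1. Those of DNAJB4 and BAG5 were lost in BR100, and those of HSPA4, HSPH1, HSPD1, DNAJC13, DNAJC21, CHORDC1, FKBP4 and STUB1 in BR200.

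**Figure D2:**
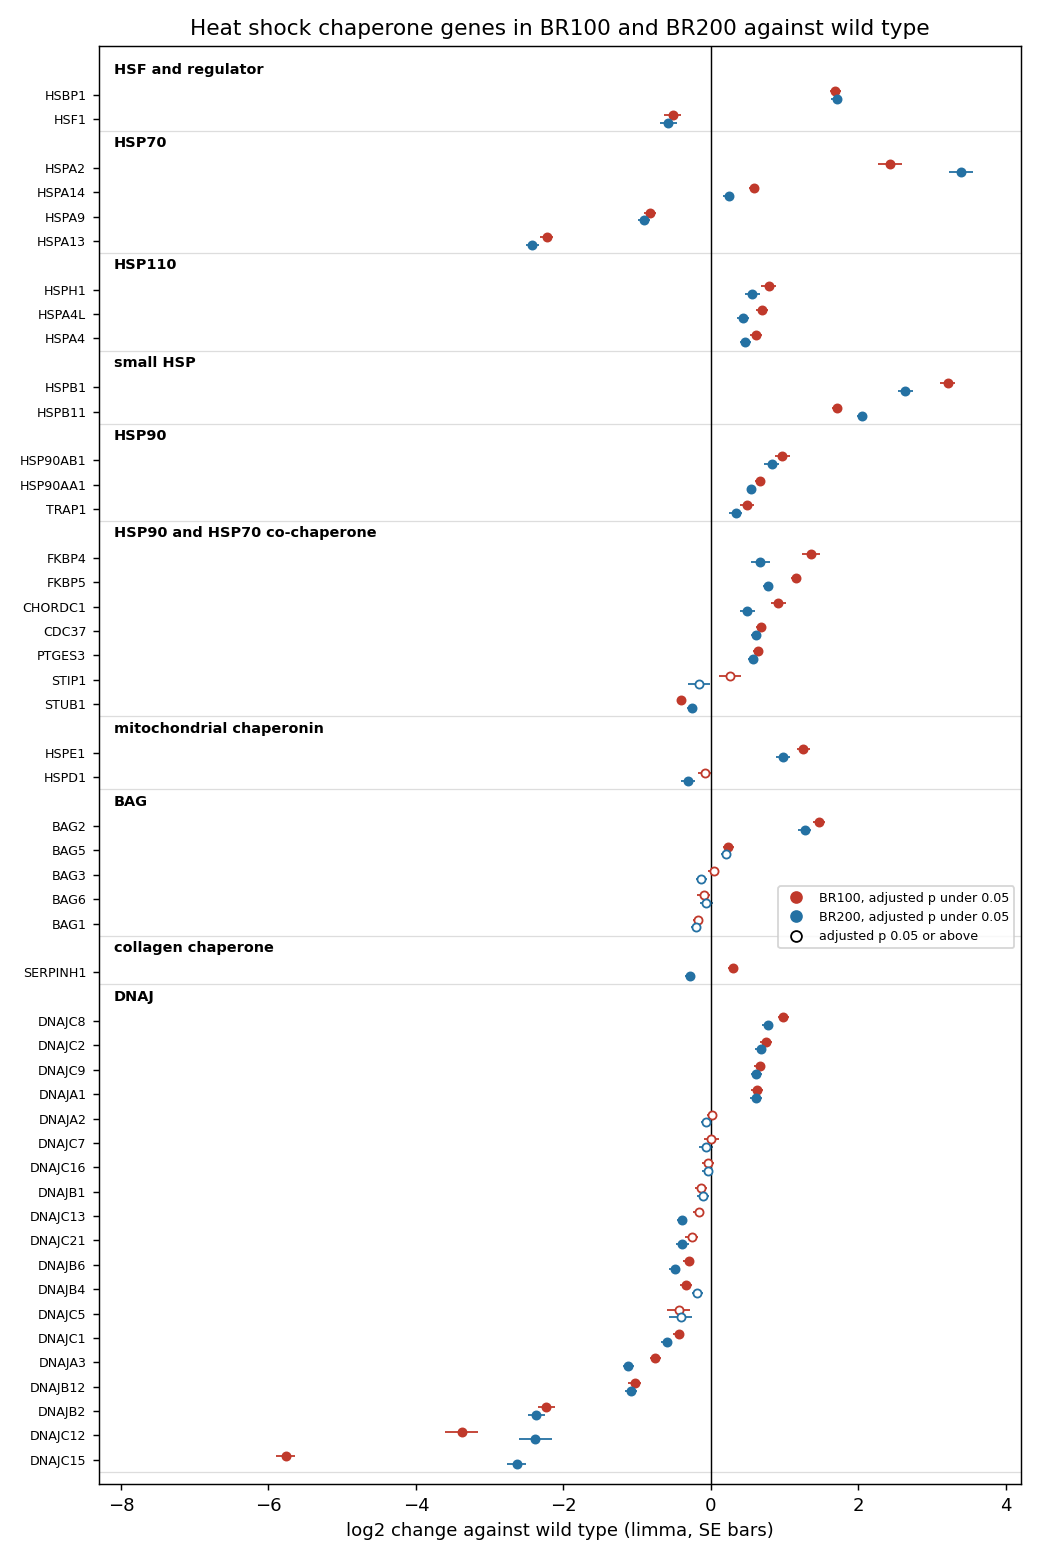
Log2 change against wild type for the 48 tested chaperone genes by class, with limma standard errors as bars. BR100 is the upper and BR200 the lower point of each gene, and open points are genes with an adjusted p of 0.05 or above. All HSP90, HSP110 and small heat shock protein genes are right of 0 with filled points in both variants, whereas DNAJ genes range from −5.76 to 0.98 in BR100.

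HSF1, which drives the heat shock response, was lower in both resistant variants, while HSBP1, a small protein that binds HSF1 trimers, was higher. HSF1 stood at log2 7.23 and 7.64 on the BR100 arrays and at 7.37 and 7.37 on the BR200 arrays, against 7.81 and 8.08 in wild type (the Express array first in every such sentence). Every resistant array was below both wild type arrays. The log2 change was −0.52 in BR100 (SE 0.118, limma adjusted p = 0.017) and −0.58 in BR200 (SE 0.118, adjusted p = 0.0126). The BR100 call was lost without the BR100 Express array or either wild type array, and the BR200 call without the BR200 One-Cycle array or either wild type array. HSBP1 stood at 13.23 and 13.06 in BR100 and 13.22 and 13.10 in BR200, against 11.59 and 11.32 in wild type. The groups did not overlap. Its log2 change was 1.69 in BR100 (SE 0.0733, adjusted p = 0.000193) and 1.70 in BR200 (SE 0.0733, adjusted p = 0.00022), and its other probe set gave 0.42 and 0.75. HSBP1 lies on chromosome 16, where 44 tested genes within 5 Mb had a median log2 change of 0.37 in BR100 and 0.41 in BR200.

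HSPB1, the small heat shock protein HSP27, showed the highest rise of the list in BR100. It stood at log2 11.03 and 12.17 on the BR100 arrays and 10.61 and 11.44 on the BR200 arrays, against 7.95 and 8.82 on the wild type arrays. All resistant arrays lay above both wild type arrays. The change was 9.28-fold in BR100 (log2 3.21, SE 0.102, limma adjusted p = 0.00012) and 6.22-fold in BR200 (log2 2.64, SE 0.102, adjusted p = 0.00019). The difference within each kit was close to the mean, at 3.08 and 3.35 in BR100 and 2.65 and 2.62 in BR200. It has 1 probe set, and 43 tested genes within 5 Mb of it had a median change of 0.00 in BR100 and 0.06 in BR200. HSPB11 (IFT25), a subunit of intraflagellar transport, stood at 12.82 and 12.32 in BR100 and 13.18 and 12.65 in BR200, against 11.12 and 10.61 in wild type. Neither resistant group overlapped wild type, and the log2 change was 1.70 in BR100 (SE 0.0639, adjusted p = 0.000159) and 2.05 in BR200 (SE 0.0639, adjusted p = 0.000143). Its 3 probe sets did not all move: one gave −0.02 in BR100 and 1.45 in BR200, and another 1.98 and 2.29. The former stood at 4.10 and 4.05 in BR100 and 4.05 and 4.13 in wild type. Those values are close to the log2 4 used in the filter on low values.

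Cytosolic HSP90 rose in both forms. HSP90AA1, the stress-inducible alpha form, stood at log2 15.09 and 15.22 in BR100 and 14.95 and 15.13 in BR200, against 14.42 and 14.56 in wild type. No resistant array reached down to a wild type array. Its log2 change was 0.66 in BR100 (SE 0.0651, limma adjusted p = 0.00129) and 0.55 in BR200 (SE 0.0651, adjusted p = 0.00245), and each of its 4 probe sets was called higher in both variants. HSP90AB1, the constitutive beta form, stood at 13.07 and 14.22 in BR100 and 12.83 and 14.16 in BR200, against 12.17 and 13.18 in wild type. The kits differed by about as much as the variants, so the groups overlapped across kits, but within each kit the resistant array was higher. Its log2 change was 0.97 in BR100 (SE 0.0999, adjusted p = 0.0015) and 0.82 in BR200 (SE 0.0999, adjusted p = 0.00261). TRAP1, the HSP90 of mitochondria, changed by 0.49 in BR100 (adjusted p = 0.00856) and 0.34 in BR200 (adjusted p = 0.0274). The TRAP1 call was lost in BR100 without the BR100 One-Cycle array, and in BR200 without either BR200 array or the wild type One-Cycle array.

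Most co-chaperones of HSP90 were called higher, 5 of 7 tested in each variant (71.4%, beside 36.7% of all genes in BR100 and 35.4% in BR200). FKBP4 (FKBP52), an immunophilin of steroid receptor complexes, stood at log2 10.38 and 11.17 in BR100 and 9.91 and 10.26 in BR200, against 9.18 and 9.65 in wild type. The groups did not overlap, and the log2 change was 1.36 in BR100 (SE 0.126, limma adjusted p = 0.00111) and 0.67 in BR200 (SE 0.126, adjusted p = 0.00977). The BR200 call was lost without the BR200 Express array or either wild type array. The second probe set of FKBP4 was called higher by 2.20 and 1.28. FKBP5 (FKBP51), a second such immunophilin, stood at 10.47 and 10.28 in BR100 and 10.08 and 9.89 in BR200, against 9.33 and 9.11 in wild type. All resistant arrays were above the wild type arrays, by 1.15 in BR100 (SE 0.064, adjusted p = 0.000314) and 0.77 in BR200 (SE 0.064, adjusted p = 0.000893). Of its 3 tested probe sets, 1 was not called (0.95 and 0.48). CHORDC1 changed by 0.91 and 0.50, CDC37, which brings kinases to HSP90, by 0.69 and 0.61, and PTGES3 (p23) by 0.63 and 0.58. The CHORDC1 call in BR200 was lost without either BR200 array or the wild type Express array. STIP1, which bridges HSP70 and HSP90, was not called (0.26 in BR100, adjusted p = 0.183, and −0.17 in BR200, adjusted p = 0.375). Its second probe set was called higher in BR100 (0.58) and not called in BR200 (0.08).

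STUB1 (CHIP), the ubiquitin ligase that marks chaperone clients, fell, and its inhibitor BAG2 rose. STUB1 stood at log2 12.71 and 12.64 in BR100 and 12.86 and 12.78 in BR200, against 13.09 and 13.06 in wild type. The groups did not overlap, and the log2 change was −0.40 in BR100 (SE 0.0653, limma adjusted p = 0.00602) and −0.25 in BR200 (SE 0.0653, adjusted p = 0.0263). The BR200 call was lost whichever array was left out. BAG2 stood at 11.45 and 11.52 in BR100 and 11.31 and 11.25 in BR200, against 10.09 and 9.94 in wild type. Resistant and wild type arrays were well apart, with a log2 change of 1.47 in BR100 (SE 0.0831, adjusted p = 0.000327) and 1.27 in BR200 (SE 0.0831, adjusted p = 0.000502). Its other tested probe set was at −0.14 and −0.02 and was not called. BAG3, which links HSP70 to selective autophagy, stood at 9.98 and 9.81 in BR100 and 9.89 and 9.56 in BR200, against 9.96 and 9.76 in wild type. These values overlapped, and no change was called (0.04 in BR100, adjusted p = 0.682, and −0.13 in BR200, adjusted p = 0.186). BAG6 was not called in either variant, and BAG5 was called in BR100 alone (0.24, adjusted p = 0.0427), a call lost whichever array was left out. The probe set that represents BAG1 was not called either (−0.18 in BR100 and −0.20 in BR200), but another was called lower in both variants (−1.36 and −1.08) and the remaining one lower in BR200 (−0.32).

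Of the HSP70 genes, HSPA2 and HSPA14 were higher and HSPA9 and HSPA13 lower in both variants. HSPA2, best known from the testis, stood at log2 6.21 and 5.52 in BR100 and 6.96 and 6.69 in BR200, against 3.46 and 3.40 in wild type. The groups did not overlap. Both wild type values were under 4, that is near background, so the size of the rise depends on the background estimate. HSPA2 passed the filter on low values only through the resistant arrays. The log2 change was 2.43 in BR100 (SE 0.166, limma adjusted p = 0.000492) and 3.39 in BR200 (SE 0.166, adjusted p = 0.000272). HSPA13, a microsomal relative of HSP70, stood at 9.30 and 9.57 in BR100 and 9.22 and 9.26 in BR200, against 11.58 and 11.74 in wild type. Its log2 change was −2.23 in BR100 (SE 0.0858, adjusted p = 0.000162) and −2.42 in BR200 (SE 0.0858, adjusted p = 0.000169), with no overlap, and its second probe set gave −1.59 and −1.42. HSPA14, a ribosome-associated relative of HSP70, changed by 0.58 in BR100 (adjusted p = 0.00272) and 0.24 in BR200 (adjusted p = 0.0427), the second of which was lost whichever array was left out. Its groups overlapped in both comparisons. Of its other probe sets, one was called higher (0.94 and 0.78) and one was not called (0.11 and −0.24).

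The HSP110 exchange factors were called higher, all 3 in both variants, beside 36.7% of all genes in BR100 and 35.4% in BR200. Without the block for labelling kit, all 3 calls were lost in BR200, and that of HSPA4L in BR100. HSPH1 (HSP105) stood at log2 12.21 and 12.54 in BR100 and 12.01 and 12.29 in BR200, against 11.58 and 11.59 in wild type. All resistant arrays were higher, by 0.79 in BR100 (SE 0.103, limma adjusted p = 0.003) and 0.56 in BR200 (SE 0.103, adjusted p = 0.00907), and the BR200 call was lost without the BR200 One-Cycle array. Its other 2 probe sets were called higher in BR100 (1.07 and 0.51) and not in BR200 (0.59 and 0.15). HSPA4 and HSPA4L, of the same family, changed by 0.61 and 0.70 in BR100 and by 0.47 and 0.44 in BR200. The BR200 call was lost without the BR200 One-Cycle array for HSPA4, and without either BR200 array for HSPA4L. For HSPA4, 3 probe sets were called higher in both variants and the remaining one was at −0.29 and −0.26 and was not called.

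In mitochondria HSPE1 was higher in both variants and HSPD1 was not. HSPE1 (HSP10), the lid of the chaperonin, stood at log2 13.52 and 13.15 in BR100 and 13.17 and 12.96 in BR200, against 12.13 and 12.03 in wild type. It was higher on every resistant array, by 1.26 in BR100 (SE 0.0921, limma adjusted p = 0.000592) and 0.98 in BR200 (SE 0.0921, adjusted p = 0.00124). HSPD1 (HSP60), the chaperonin itself, stood at 15.03 and 15.06 in BR100 and 14.76 and 14.87 in BR200, against 15.21 and 15.04 in wild type. BR100 overlapped wild type and was not called (−0.08, adjusted p = 0.491), and BR200 was called lower (−0.31, adjusted p = 0.0406), a call lost without any single array other than the wild type One-Cycle array. Of its 4 tested probe sets, 1 was called lower in both variants when each was tested on its own (−0.67 in BR100 and −0.92 in BR200). The 2 genes are transcribed away from each other, with RefSeq starts of HSPD1 at 105 and 539 bases from that of HSPE1. HSPA9 (mortalin), the HSP70 of the mitochondrial matrix, stood at 12.77 and 12.60 in BR100 and 12.60 and 12.61 in BR200, against 13.59 and 13.43 in wild type. Its log2 change was −0.83 in BR100 (SE 0.0788, adjusted p = 0.00119) and −0.91 in BR200 (SE 0.0788, adjusted p = 0.000999), and each of its 3 tested probe sets was called lower, the furthest by −1.53 and −1.79.

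**Figure D3:**
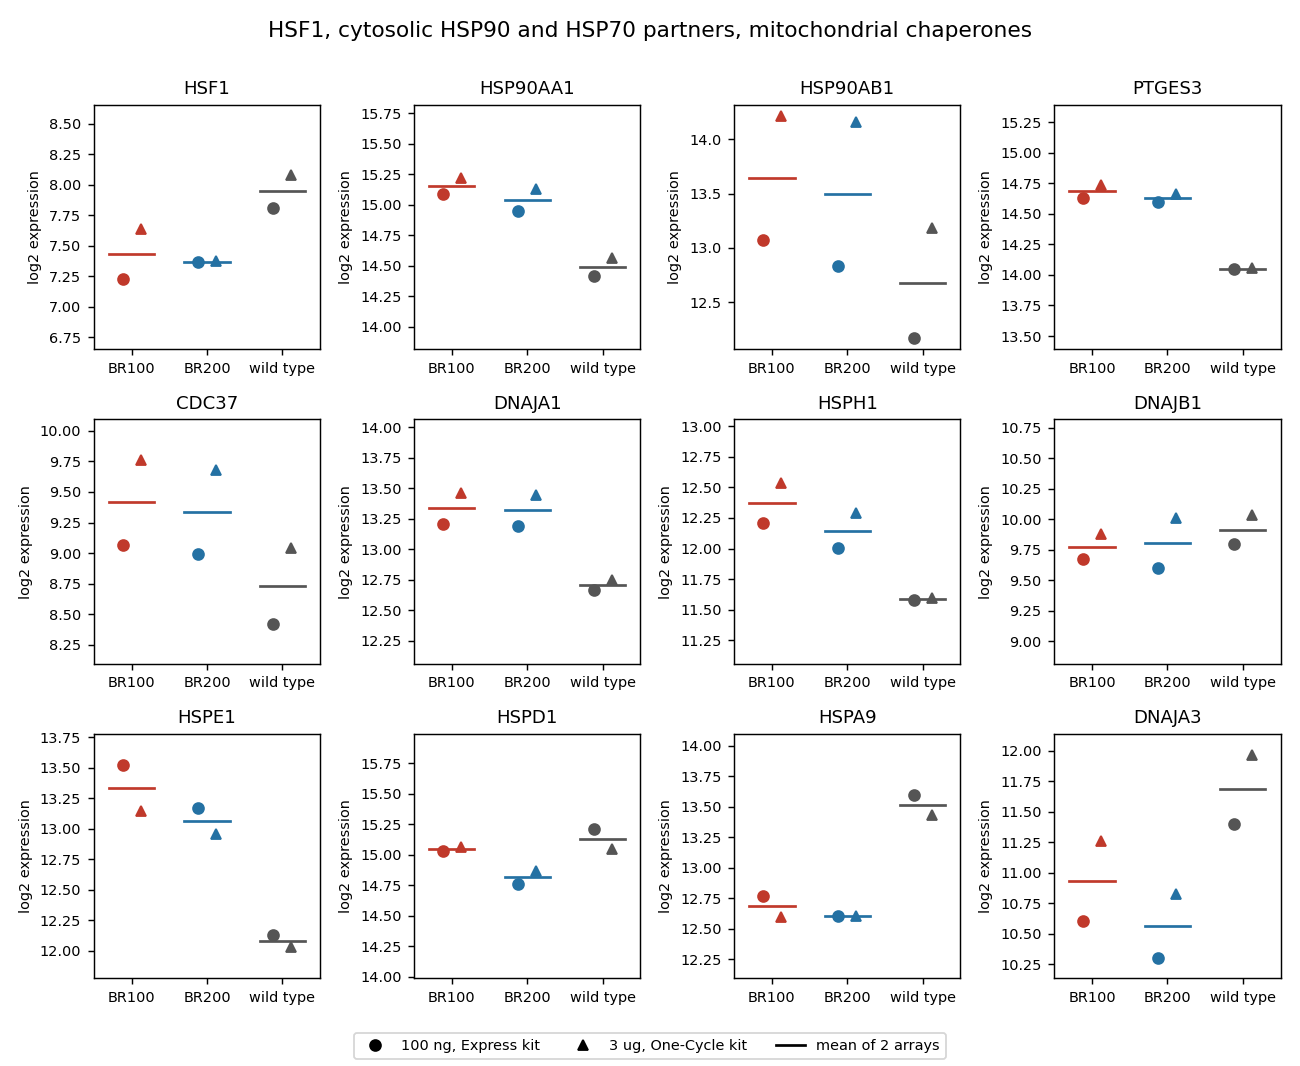
Log2 level on each array of HSF1, HSP90 and HSP70 partners and mitochondrial chaperones in BR100, BR200 and wild type. Circles are Express arrays, triangles One-Cycle arrays and bars the mean of 2 arrays, and axis ranges differ between genes. HSP90AA1 and HSPE1 are higher and HSF1, HSPA9 and DNAJA3 lower on all 4 resistant arrays.

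More J-proteins were called lower than higher: 4 of 19 tested were higher and 8 lower in BR100, and 4 were higher and 9 lower in BR200. The shares higher were 21.1% in each, beside 36.7% and 35.4% of all genes, and the shares lower 42.1% and 47.4%, beside 31.8% and 31.2%. DNAJC15 (MCJ), of the inner mitochondrial membrane, stood at log2 3.68 and 2.23 on the BR100 arrays and 6.73 and 5.45 on the BR200 arrays, against 9.22 and 8.23 in wild type. The 3 variants did not overlap, and BR100 was near background on both arrays, so the size of its change depends on the background estimate. The log2 change was −5.76 in BR100 (SE 0.129, limma adjusted p = 7.56e-05) and −2.63 in BR200 (SE 0.129, adjusted p = 0.000274). Its other tested probe set gave −3.91 and −3.88, but stood near the lowest value on every resistant array (2.26 to 2.32). DNAJC12, a co-chaperone of aromatic amino acid hydroxylases, stood at 6.46 and 6.86 in BR100 and 7.90 and 7.41 in BR200, against 10.01 and 10.07 in wild type. It was lower on every resistant array, with a log2 change of −3.38 in BR100 (SE 0.226, adjusted p = 0.00047) and −2.38 in BR200 (SE 0.226, adjusted p = 0.00127), and all 3 of its probe sets were called lower.

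DNAJB2, a J-protein with ubiquitin-interacting motifs, stood at log2 5.69 and 5.04 in BR100 and 5.41 and 5.05 in BR200, against 7.73 and 7.47 in wild type. Resistant and wild type arrays did not overlap, with a change of −2.23 in BR100 (SE 0.117, limma adjusted p = 0.000277) and −2.37 in BR200 (SE 0.117, adjusted p = 0.000278). DNAJB12, of the endoplasmic reticulum membrane, stood at 8.72 and 8.68 in BR100 and 8.57 and 8.74 in BR200, against 9.72 and 9.75 in wild type. Its log2 change was −1.04 in BR100 (adjusted p = 0.000722) and −1.08 in BR200 (adjusted p = 0.000722), with no overlap. Its other 3 tested probe sets were not called, at 0.16, −0.13 and 0.00 in BR100 and −0.33, −0.23 and 0.00 in BR200. The probe set at 0.00 stood at the same value, 5.6676, on all 6 arrays and so could not show a difference. DNAJA3, the mitochondrial class A J-protein, stood at 10.60 and 11.26 in BR100 and 10.30 and 10.82 in BR200, against 11.40 and 11.97 in wild type. All resistant arrays were below both wild type arrays, and the change was −0.75 in BR100 (adjusted p = 0.00118) and −1.12 in BR200 (adjusted p = 0.00048).

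DNAJB1 (HSP40), the heat-inducible partner of HSP70, stood at log2 9.68 and 9.88 in BR100 and 9.60 and 10.01 in BR200, against 9.80 and 10.03 in wild type. These overlapped and were not called (−0.14 in BR100, limma adjusted p = 0.202, and −0.11 in BR200, adjusted p = 0.298). Its second probe set was called higher, at 0.61 and 0.54. The J-proteins that rose were DNAJC8 of the spliceosome (0.98 in BR100 and 0.77 in BR200), the ribosome-associated DNAJC2 (0.75 and 0.67), the histone chaperone DNAJC9 (0.66 and 0.62) and DNAJA1 (0.63 and 0.61). Smaller falls were called for DNAJC1 (−0.44 and −0.60) and DNAJB6 (−0.30 and −0.49) in both variants, for DNAJB4 in BR100 (−0.34), and for DNAJC13 (−0.39) and DNAJC21 (−0.38) in BR200. For DNAJB4 a second probe set was called in the other direction (0.66). For DNAJC21, 2 other probe sets were called lower in both variants, by −1.02 and −0.72 in BR100 and −1.03 and −0.72 in BR200. Leaving out 1 array ended the BR100 calls of DNAJC1 (the BR100 One-Cycle array), DNAJB6 (any array but the wild type Express array) and DNAJB4 (the BR100 One-Cycle array or either wild type array), and the BR200 calls of DNAJC13 and DNAJC21 (the BR200 or the wild type Express array). DNAJA2, DNAJC5, DNAJC7 and DNAJC16 were not called in either variant by the probe set that represents them. A second probe set was called lower in both variants for DNAJA2 (−0.94 and −0.88), and in BR100 for DNAJC16 (−0.38) and DNAJC5 (−0.26).

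**Figure D4:**
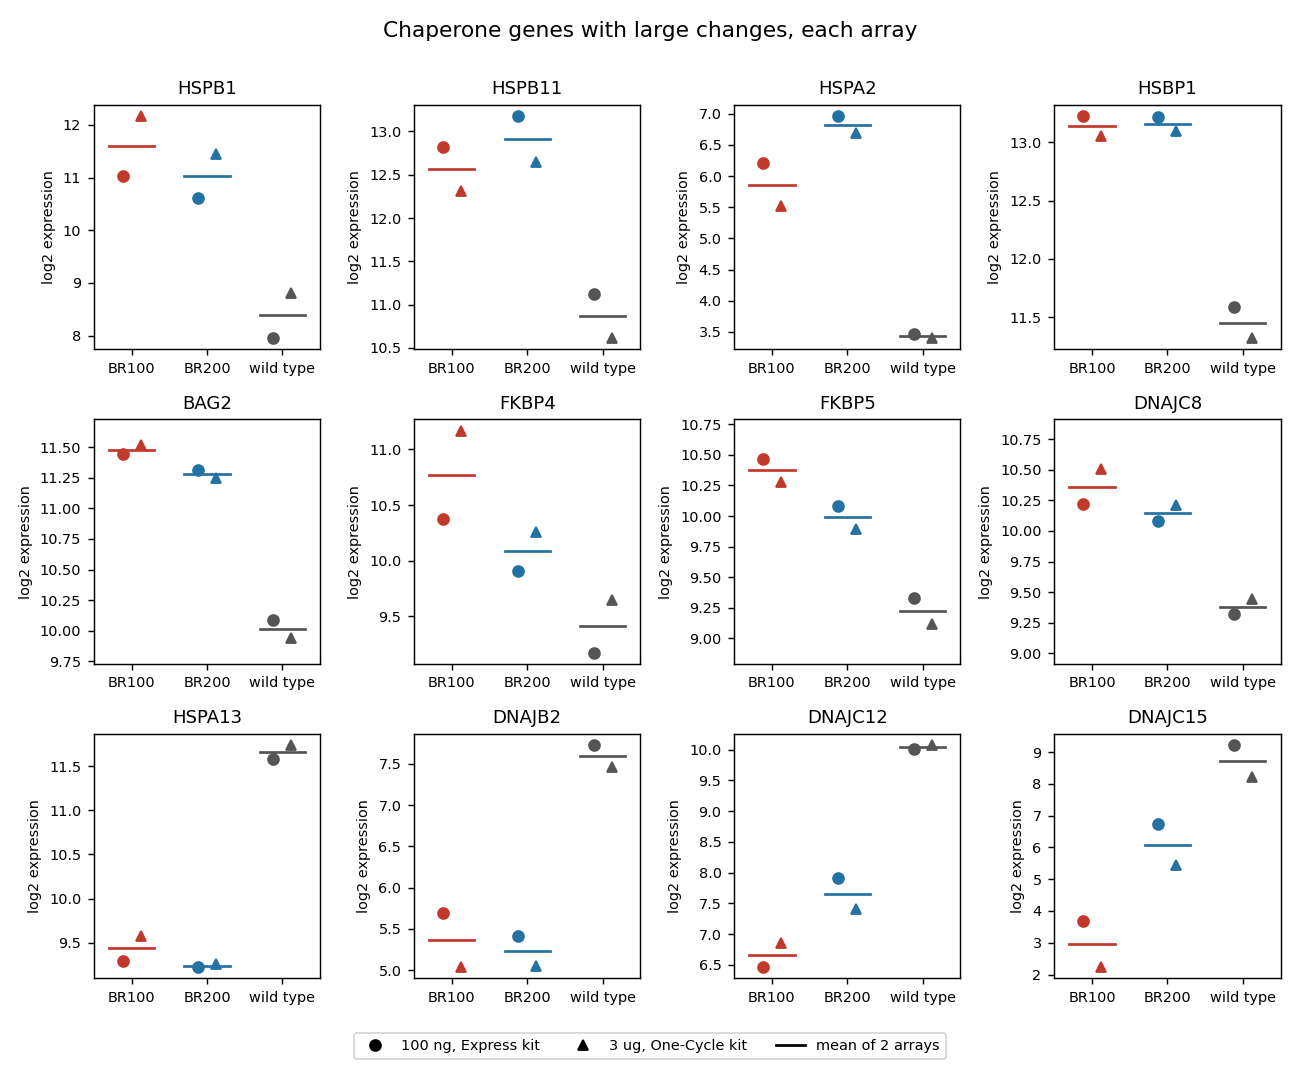
Log2 level on each array of 12 chaperone genes with large changes in BR100, BR200 and wild type. Circles are Express arrays, triangles One-Cycle arrays and bars the mean of 2 arrays, and axis ranges differ between genes. DNAJC15 separates all 3 variants, from 2.23 on the lowest BR100 array to 9.22 on the highest wild type array.

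SERPINH1 (HSP47), the collagen chaperone, was the single member called in opposite directions. It stood at log2 9.03 and 9.30 in BR100 and 8.47 and 8.69 in BR200, against 8.79 and 8.93 in wild type. BR100 lay above and BR200 below the wild type arrays, at 0.30 (SE 0.0706, limma adjusted p = 0.0183) and −0.28 (SE 0.0706, adjusted p = 0.0235). The BR100 call was lost without either BR100 array or the wild type One-Cycle array, and the BR200 call without any array other than the wild type One-Cycle array.

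Set directly against each other, BR200 and BR100 differed in few chaperone genes. In BR200, 3 were higher and 4 lower than in BR100 (6.25% and 8.33%), beside 6.39% and 4.23% of all genes. DNAJC15 was higher in BR200 by 3.13 (SE 0.129, limma adjusted p = 0.0039), HSPA2 by 0.96 (SE 0.166, adjusted p = 0.0416) and HSPB11 by 0.34 (SE 0.0639, adjusted p = 0.0474). Lower in BR200 were FKBP4 (−0.69, adjusted p = 0.0457), SERPINH1 (−0.59, adjusted p = 0.023), HSPB1 (−0.58, adjusted p = 0.0441) and FKBP5 (−0.38, adjusted p = 0.0396). The DNAJC15 call was lost without any 1 of the BR200 or BR100 arrays, and the other 6 calls were lost whichever array was left out, wild type arrays included. Without the block for labelling kit limma called 0 of the 7, and 3 chaperone genes were higher and 2 lower at an unadjusted p under 0.05. The share of all genes at that unadjusted level was not counted. For the other 41 genes no difference was called, which does not show that the variants were alike.

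Genes with a 3-unit heat shock element did not all change in 1 direction. Of the 7, limma called 5 higher (HSP90AA1, HSP90AB1, CHORDC1, DNAJA1 and SERPINH1), 1 lower (DNAJB6) and 1 neither (HSPD1) in BR100. In BR200, 4 were called higher and 3 lower, the lower ones being DNAJB6, HSPD1 and SERPINH1. Of all genes, 36.7% were higher and 31.8% lower in BR100, and 35.4% and 31.2% in BR200. The calls of SERPINH1 in both variants, DNAJB6 in BR100, and HSPD1 and CHORDC1 in BR200 were lost when single arrays were left out. HSPB1, whose window holds a 2-unit element alone, rose more than any of them. The HSPD1 match lies between the 2 RefSeq starts of HSPD1. It is upstream of the neighbouring HSPE1, which was called higher (1.26 in BR100 and 0.98 in BR200), but outside the window searched for HSPE1.

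Some members lie on chromosomes or in regions whose tested genes had shifted medians. On chromosome 14, 349 tested genes had a median log2 change of 0.63 in BR100 and 0.66 in BR200, and HSPA2, HSP90AA1 and BAG5 lie there. The change of HSP90AA1 (0.66 and 0.55) was near those medians, but above that of the 51 tested genes within 5 Mb of it (0.39 in BR100 and 0.37 in BR200). Around HSPA2, 43 tested genes within 5 Mb had a median of 0.54 in BR100 and 0.58 in BR200. For HSPA4L (0.70 and 0.44), 13 neighbours within 5 Mb had a median of 0.72 in BR100 and 0.21 in BR200, and for BAG2 (1.47 and 1.27), 17 neighbours had 0.59 and 0.43. On chromosome 11, with SERPINH1, CHORDC1 and STIP1, the median of 614 genes in BR200 against BR100 was −0.18. Around DNAJC15 on chromosome 13, 34 genes within 5 Mb had a median of −0.28 in BR100 and −0.51 in BR200. For DNAJC1 (−0.44 and −0.60), 15 neighbours had a median of −0.44 in BR100 and −0.32 in BR200. BAG5 changed by 0.24 in BR100, and its 51 neighbours had a median of 0.39. The part of these regional shifts in the members' changes was not tested.

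Further genes of the chaperone system were read from lists. Among 32 tested of 53 other heat shock system genes, 12 were higher and 11 lower in BR100 (37.5% and 34.4%, beside 36.7% and 31.8% of all genes), and 10 higher and 9 lower in BR200 (31.2% and 28.1%, beside 35.4% and 31.2%). These shares were near those of all genes. HSPBP1, an exchange factor of HSP70, rose by 1.80 in BR100 and 1.42 in BR200, and the mitochondrial disaggregase CLPB by 1.81 and 1.18. The mitochondrial protease LONP1 was lower (−1.67 in BR100 and −1.71 in BR200), as was GRPEL2, an exchange factor of mitochondrial HSP70 (−1.22 and −1.63). GRPEL1, which has the same role, was called higher (0.81 and 0.40). HSPA1A, HSPA1B and HSPA8 were not analysed here, since no probe set was named for them alone, and CRYAB stood at the lowest value on every array. All 7 tested subunits of CCT, the cytosolic chaperonin that folds actin and tubulin, were higher in BR100, and 5 were higher and none lower in BR200 (median 0.52 and 0.39), that is 100% and 71.4% higher beside 36.7% and 35.4% of all genes. Chaperones of the endoplasmic reticulum went mostly the other way, with 3 of 17 higher and 10 lower in BR100 and 2 higher and 11 lower in BR200 (median −0.55 and −0.57). The shares lower were 58.8% and 64.7%, beside 31.8% and 31.2% of all genes. The called log2 changes in BR100 and BR200 were −2.50 and −2.80 for DNAJB9, −2.02 and −2.25 for DNAJB11, and −0.86 and −1.12 for HSPA5 (BiP), the HSP70 of that compartment.

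An array had 10063 to 10193 genes at log2 4 or above. The markers of colon epithelium were present in part: 7 of 9, among them EPCAM and KRT20, reached 4 on all arrays, and CDX2 and GPA33 stood at the lowest value on every array. Of 14 listed markers of fibroblasts, blood cells and endothelium, COL1A1, CD14, LYZ and ENG were tested, and PTPRC, CD3E, COL3A1 and CDH5 stood at or near the lowest value. LYZ was high on every array (14.34 to 14.84). CD14 averaged 5.73 in BR100 and 6.51 in BR200, against 5.46 in wild type, and the epithelial marker VIL1 averaged 6.52 in BR100 and 6.62 in BR200, against 8.37 in wild type. Their part in the changes was not tested. The log2 gap between 3′ and 5′ probe sets of ACTB, which depends on RNA integrity and labelling, moved with the variants, at 3.03 in BR100 and 3.24 in BR200 against 4.22 in wild type on Express arrays, and at 1.86 in BR100 and 1.76 in BR200 against 2.99 in wild type on One-Cycle arrays. Its part in the changes was not tested.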

How the data were processed

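The 6 samples were hybridised to Affymetrix human arrays holding 54675 probe sets. The authors deposited log2 expression values, 1 per probe set, made with GCRMA per the submitters' processing notes; its version is not given in the sources used here. GCRMA corrects background, normalizes and summarizes probes, so low values depend on the background estimate. No detection calls were used, and the number of arrays limits the precision.

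Genes were matched to probe sets through the platform annotation: 41097 probe sets named 1 gene, 1801 several and 11777 none, and only those naming 1 gene were used. Each of 19775 genes was represented by its probe set with the highest mean, and genes were tested where at least 2 of 6 arrays reached log2 4, which left 10370. All 6 arrays entered 1 linear model in limma 3.58.1 (R 4.3.3), with variant as the term of interest and labelling kit as a block, and eBayes p-values were two-sided and Benjamini-Hochberg adjusted over all genes tested. The model had 2 residual degrees of freedom and a prior of 2.33. Array numbers paired the samples, since each number was 1 kit in the labels, and deviations of same-kit arrays from the variant means correlated at 0.76 to 0.84. Other probe sets of a gene were tested each on its own in the same model. The model was tested on simulated arrays, with normal noise drawn from the spreads it had estimated. It recovered 77.2% of the 1.5-fold, 97.2% of the 2-fold and 99.8% of the 4-fold changes set in BR100. Of unchanged genes, 0.119% were called. Such arrays repeat the assumptions of the model, so they cannot show how separate cultures would vary.

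Array values are given for genes called at log2 1 or more in either resistant variant, or at 0.5 or more between BR200 and BR100. A further 12 genes were chosen whatever their values (HSF1, HSF2, HSPB1, HSP90AA1, HSP90AB1, HSPD1, HSPE1, HSPA9, DNAJB1, HSPH1, BAG3 and STUB1). Of these, HSF2 has no values, because no probe set was named for it. The members and lists were chosen with earlier results of these data known. Alternatives were no kit block, each array left out, other filters, other choices of probe set, quantile normalization, fewer arrays and an intensity trend. Promoter windows came from RefSeq (GRCh38.p14); 5 genes had none.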

Additional observations from a re-analysis of the deposited data

Results flagged for a closer look

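For 7 chaperone genes limma called a difference between BR200 and BR100. None of these calls held without the kit block, and 6 of the 7 were lost whichever array was left out. The log2 difference, BR200 minus BR100, was 3.13 for DNAJC15, 0.96 for HSPA2 and 0.34 for HSPB11, and −0.69 for FKBP4, −0.59 for SERPINH1, −0.58 for HSPB1 and −0.38 for FKBP5. DNAJC15 was near background on both BR100 arrays. Its second tested probe set gave −3.88 in BR200 and −3.91 in BR100, a difference of 0.03 that was not called (limma adjusted p = 0.934). That probe set stood at 2.26 to 2.32 on every resistant array, near the lowest value of the data. It could therefore not show a difference between BR200 and BR100, and the difference rests on 1 probe set.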

How the results depend on the processing

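With 2 arrays per variant and 2 residual degrees of freedom, counts between BR200 and BR100 depended most on the processing. Counts at an unadjusted p under 0.05 cover the chaperone genes alone, and the share of all genes at that level was not counted. Without the replicate block for kit, limma called 4387 of all genes in BR100 against wild type, 4100 in BR200 against wild type and 112 in BR200 against BR100, and of the chaperone genes 13 higher and 7 lower in BR200 against wild type, and 0 higher and 0 lower in BR200 against BR100 (3 and 2 at an unadjusted p under 0.05). With arrays left out in turn, BR200 against BR100 ranged from 0 to 61 genes in all, with 0 to 1 chaperone genes higher and 0 to 0 lower (3 to 4 higher and 5 to 13 lower at an unadjusted p under 0.05), and BR200 against wild type had 9 to 13 lower. Without the filter, BR200 against BR100 had 15 genes in all and 0 higher and 0 lower chaperone genes (4 and 12 unadjusted); with only the 4 arrays compared, 61, 1 and 0; with an intensity trend, 1745 in all and 7 lower; and with a filter at log2 6, 7 lower. Leaving out _x_at, _s_at and _a_at probe sets left 30 chaperone genes tested. Of these, 12 were higher in BR100, 11 higher in BR200 and 1 lower in BR200 against BR100. In either direction, 25 of the 30 were called in BR100 and 23 in BR200 against wild type, beside 5210 and 5026 of 7701 genes. The same setting reversed the call of HSPA4 in BR100 (−0.29, limma adjusted p = 0.0477). It turned HSPA4 in BR200 (−0.26) and HSPB11 in BR100 (−0.0175) to uncalled values. Averaging probe sets called DNAJA2 lower (−0.47, adjusted p = 0.00487) and DNAJB1 higher (0.24, adjusted p = 0.0246) in BR100 and DNAJB1 higher in BR200 (0.21, adjusted p = 0.0344), none of them called before, and turned DNAJB4 in BR100 to an uncalled 0.16. Within each kit no called chaperone gene changed sign. That could hardly have come out otherwise, because a call depends on similar differences in the 2 kits. The cause of the other shifts was not tested.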
